A study of Mus musculus with 8 samples.

Results

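Transcripts of 10 genes of the unfolded protein response, the stress programme of the endoplasmic reticulum (ER), were followed in mouse embryonic fibroblasts after RSL3 and SRT1720. The genes were taken by symbol from the read count table, which also gives NCBI Gene IDs. They were Atf6 (226641), Ern1 (78943), Xbp1 (22433), Hspa5 (14828), Hsp90b1 (22027), Calr (12317), Pdia4 (12304), Sdf2l1 (64136), Creld2 (76737) and Herpud1 (64209). All 10 were among its 17910 genes, and all 10 were among the 12618 genes that passed the filter on low counts. The study had 4 groups of 2 libraries of wild-type fibroblasts bought from a cell repository. They were SRT1720 (0.2 µM) given 30 min before RSL3, RSL3 (1 µM for 2 h), SRT1720 alone (0.2 µM), and control. The labels give 2 h for every group and a pretreatment for the combined group only. Whether cells of the 2 groups with SRT1720 had it for equally long is not stated. RSL3 is a small molecule used to induce ferroptosis, a death by lipid peroxidation, and acts on the peroxidase GPX4. SRT1720 is sold as an activator of the deacetylase SIRT1. The labels name no vehicle for the control, and their text on RNA extraction speaks of HT1080 cells and lung, which are not among these samples. They do not say whether the libraries of a group came from separate cultures, so the spread behind each p-value is that of these libraries and may be technical.

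Proteins that fail to fold in the ER are sensed by the membrane proteins IRE1, ATF6 and PERK. IRE1, encoded by Ern1, splices Xbp1 mRNA so that it encodes an active transcription factor. ATF6 moves to the Golgi and is cut there to release its own transcription factor, and PERK slows translation and favours that of ATF4. The target genes encode chaperones such as Hspa5 (also called BiP), disulfide isomerases, and factors such as Herpud1 that carry misfolded proteins out for degradation. The table holds reads per gene, so the splicing of Xbp1 and the cutting of ATF6 were not seen.

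Promoter sequence is shown first, because the programme is known for the elements its target genes share. Windows from 250 bases before to 50 bases after the annotated start were taken from RefSeq (build GRCm38.p6), where 9 of the 10 genes matched by gene ID (Atf6 had no entry). They were searched on both strands for CCAAT and CCACG with any 9 bases between them (the ER stress response element, ERSE), ATTGG and CCACG with any 1 base between them (ERSE-II), TGACGTGG (an XBP1-binding element) and TTGCATCA (a C/EBP-ATF element, bound by ATF4). ERSE and ERSE-II both end in CCACG, and none of the 9 genes held both. A match of letters is a description, not a site of binding.

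The window of Herpud1 held an ERSE-II at -52 to -42 and a C/EBP-ATF element at -112 to -105, both on the gene strand. It was the 1 gene of the 27025 in the RefSeq table whose windows held both. Its 250 bases before the start, chr8:94386179-94386428 (+ strand), follow with the fixed letters of the C/EBP-ATF element (first) and the ERSE-II (second) in capitals.
Herpud1: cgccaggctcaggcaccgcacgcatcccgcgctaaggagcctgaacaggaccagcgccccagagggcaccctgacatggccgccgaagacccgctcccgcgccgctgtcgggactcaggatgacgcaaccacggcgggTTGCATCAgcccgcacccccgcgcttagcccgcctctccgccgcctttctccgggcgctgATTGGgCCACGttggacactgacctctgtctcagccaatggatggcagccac

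The window of Hspa5 held an ERSE at -65 to -47. Its 250 bases before the start, chr2:34771840-34772089 (+ strand), follow with the fixed letters of the ERSE in capitals.
Hspa5: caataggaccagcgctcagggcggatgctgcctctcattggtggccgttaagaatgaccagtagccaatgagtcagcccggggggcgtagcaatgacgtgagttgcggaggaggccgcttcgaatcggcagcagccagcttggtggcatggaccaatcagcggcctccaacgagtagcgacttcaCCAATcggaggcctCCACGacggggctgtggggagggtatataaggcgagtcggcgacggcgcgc

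An ERSE was also found in Hsp90b1 (2 matches, at -212 to -194 and -107 to -89), Calr (-162 to -144) and Creld2 (-126 to -108). Each is printed with 10 flanking bases on the strand that reads CCAAT first, so that the sites can be aligned, with the fixed letters in capitals. They lie at chr10:86705628-86705666 (- strand) and chr10:86705523-86705561 (+ strand) for Hsp90b1, chr8:84847065-84847103 (+ strand) for Calr and chr15:88819510-88819548 (- strand) for Creld2.
Hsp90b1, distal: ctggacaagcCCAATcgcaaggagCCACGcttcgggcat
Hsp90b1, proximal: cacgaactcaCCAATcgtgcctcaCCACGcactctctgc
Calr: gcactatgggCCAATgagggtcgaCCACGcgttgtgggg
Creld2: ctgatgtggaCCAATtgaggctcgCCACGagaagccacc

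None of these letters was found in the windows of Ern1, Xbp1, Pdia4 and Sdf2l1. An ERSE lay in 0.119% of all 32851 windows, an ERSE-II in 0.0365%, the XBP1 element in 0.676% and the C/EBP-ATF element in 0.895%. Of 17 tested genes with an ERSE, 7 were higher after RSL3 and 0 lower by edgeR's test (median log2 change 0.32). Among these 7 were Hspa5, Hsp90b1 and Calr, and Canx, Ero1b and Pdia6 from the list of other ER folding factors used below. Creld2 (log2 change 0.0067) and, from that list, Dnajc3 (0.19) also held an ERSE and did not pass. Of 71 with a C/EBP-ATF element, 27 were higher and 4 lower (median 0.39), and of 10 with an ERSE-II, 1 was higher and 2 lower (median 0.03). Of 97 with the XBP1 element, 24 were higher and 14 lower (median 0.05). The 1 higher gene with an ERSE-II was Herpud1. From the list of other ER folding factors, Dnajb11 (0.12) held an ERSE-II, and Txndc5 (0.16) and Txndc11 (-0.29) the XBP1 element. None of these folding factors passed. Herpud1 also counts among those with a C/EBP-ATF element, as do Atf3, Chac1, Nupr1, Slc7a11 and Vldlr from the PERK and ATF4 list below. These counts are thus not independent of the genes followed here. Over all 12618 genes, 18.3% were higher and 17.5% lower.

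**Figure D1:**
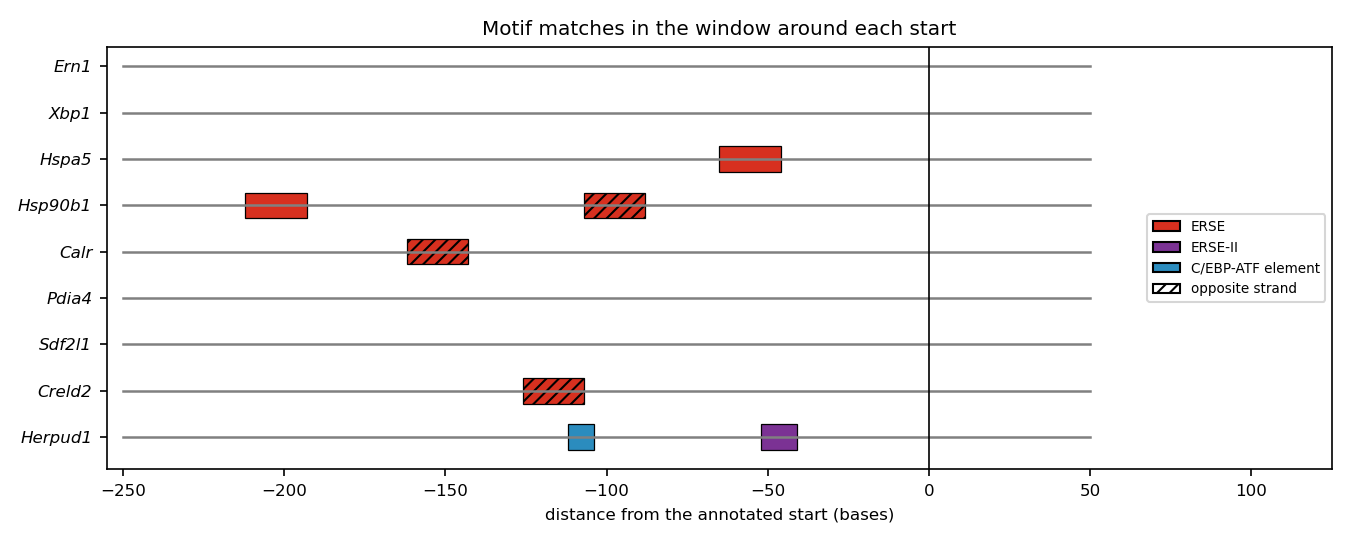
Motif matches in the promoter windows of 9 genes, by distance from the annotated start in bases (horizontal axis, start at 0). Red boxes are ERSE, purple ERSE-II and blue the C/EBP-ATF element, with hatching for the opposite strand, and Herpud1 is the gene with the purple and the blue box.

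The libraries held 20579122 to 21287620 counts. Levels are given as CPM (counts relative to the library's total, after TMM scaling). The 2 libraries of the RSL3 group and of the control group were less alike than those of the other groups, with an SD of the log2 difference within a pair of 0.297 in RSL3 and 0.242 in control over 8637 genes, against 0.159 in SRT1720 plus RSL3 and 0.147 in SRT1720. All 11 fibroblast markers in the table (of 12 chosen) were counted in every library, from 0.172 CPM for Dcn to 3302 CPM for Vim. Their summed level was 7913 to 7931 CPM in SRT1720 plus RSL3, 9101 to 10737 in RSL3, 6758 to 7145 in SRT1720 and 7477 to 9076 in control. Of 20 markers of other cell types, 19 were in the table and 9 were tested. Their sum was 71.2 to 71.5 CPM in SRT1720 plus RSL3, 82.5 to 96.7 in RSL3, 52.2 to 53.9 in SRT1720 and 45.6 to 50.1 in control. The muscle marker Myog and the adipocyte marker Plin1 were at 0 in all 8 libraries, and the leukocyte marker Ptprc was at 0 in 4. The 4 that rose after RSL3 were the macrophage markers Cd68 (2.79 to 13.0 CPM over all libraries; log2 change 1.78 ± 0.23) and Csf1r (0.708 to 3.64 CPM; 1.49 ± 0.30), the endothelial marker Kdr (0.515 to 4.89 CPM; 2.10 ± 0.29) and the neuronal marker Tubb3 (27.7 to 63.3 CPM; 0.97 ± 0.13). The other 5 tested, Cdh5, Epcam, Grhl2, Map2 and Col2a1, did not pass. Of the endothelial markers, Cdh5 changed by 0.40 ± 0.46 and Pecam1 was too low to be tested. Tubb3, at a mean of 56.1 CPM in RSL3 and 28.6 CPM in control, was the largest part of the sum. In bulk RNA, a change in the number of cells of a type and a change in RNA per cell cannot be told apart.

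The first comparison asks what 2 h of RSL3 changed. Of the 10 genes, 7 rose and 0 fell, and 3 did not pass (edgeR's quasi-likelihood test, adjusted p below 0.05). Of all genes tested 35.8% were called, 18.3% higher and 17.5% lower. The median log2 change of the 10 genes was 0.56, against 0.01 over all genes. With library size only as the scaling, which moves the median log2 change of all genes by -0.28, 4 of the 10 rose and 1 fell (Pdia4), and over all genes 1220 rose and 4675 fell. The rise was led by Herpud1 and Hspa5, took in both mRNAs of the IRE1 arm, and left out Pdia4, Sdf2l1 and Creld2. These 3 encode luminal folding factors, as do Hspa5, Hsp90b1 and Calr, which rose.

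Herpud1 encodes an ER membrane protein that organises the complex for degradation of misfolded proteins. It was at 525.5 and 634.4 CPM in the RSL3 libraries, against 56.3 and 63.1 CPM in the control libraries. Both RSL3 libraries lay far above both controls. The log2 fold change was 3.28 ± 0.12 (SE; adjusted p = 1.17e-07, edgeR), which is 9.72-fold with a 95% interval of 8.04 to 11.8.

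Hspa5 encodes BiP, the HSP70 chaperone of the ER lumen that also holds the sensors inactive. It was at 1799.6 and 2594 CPM in RSL3 libraries and 588.3 and 716.2 CPM in control libraries, without overlap. Here and below, groups of 2 libraries can often lie apart without any true change, and the share of all genes without overlap was not counted. Its log2 fold change was 1.75 ± 0.17 (adjusted p = 4.54e-05, edgeR), or 3.37-fold (95% interval 2.60 to 4.36). Hspa5 also held the widest upward gap between the RSL3 libraries among the 10 genes, 0.53 on the log2 scale.

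Both mRNAs of the IRE1 arm rose. Ern1 was at 27.4 and 31.1 CPM in RSL3 libraries, against 12.5 and 15.5 CPM in control libraries (log2 fold change 1.06 ± 0.16, adjusted p = 0.000736, edgeR). Xbp1, the mRNA that IRE1 splices, was at 52.9 and 63.4 CPM in RSL3 libraries, against 33.1 and 27.5 CPM in control libraries (0.94 ± 0.13, adjusted p = 0.000477). The groups did not overlap for either gene. Atf6, which encodes the sensor that is cut in the Golgi, rose less. It was at 79.2 and 97.0 CPM with RSL3 and 58.7 and 59.2 CPM in control (0.58 ± 0.12, adjusted p = 0.00382). With library size only its call ended (0.29).

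The remaining abundant chaperones rose by smaller amounts. Calr, which encodes the lectin chaperone calreticulin, was at 1687 and 2103 CPM in RSL3 libraries and 1233 and 1468 CPM in control libraries (0.49 ± 0.13, adjusted p = 0.0128, edgeR). Hsp90b1, which encodes GRP94, the HSP90 of the ER, was at 765.5 and 1049 CPM in RSL3 libraries and 558.6 and 689.1 CPM in control libraries (0.54 ± 0.15, adjusted p = 0.0211). The groups did not overlap for either gene. Both calls ended without RSL3 replicate 2 (0.32 for Calr and 0.29 for Hsp90b1), without control replicate 1 (0.36 and 0.39), with the 4 libraries compared on their own (0.47 and 0.52) and with library size only (0.21 and 0.26). In the same comparison 4 of 11 fibroblast markers rose and 0 fell (median log2 change 0.43), and 4 of 9 tested markers of other cell types rose and 0 fell (median 0.97). The part of either list in these changes was not tested.

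Pdia4, Sdf2l1 and Creld2 did not pass. Pdia4, a disulfide isomerase, was at 99.5 and 110.7 CPM in RSL3 libraries and 121.6 and 119.7 CPM in control libraries (-0.20 ± 0.10, 95% interval -0.42 to 0.02, adjusted p = 0.141, edgeR). With library size only it passed as lower (-0.48). Sdf2l1, a luminal partner of BiP and its co-chaperones, was at 20.1 and 13.9 CPM in RSL3 libraries and 15.2 and 14.9 CPM in control libraries. Its RSL3 libraries lay on either side of both controls (0.18 ± 0.17, interval -0.20 to 0.56), and its value was 0.42, a call, without RSL3 replicate 2 and -0.13 without RSL3 replicate 1. Creld2, an ER stress-induced factor with a role in folding, was at 45.2 and 51.3 CPM in RSL3 and 48.3 and 47.8 CPM in control cells (0.0067 ± 0.12, interval -0.27 to 0.28).

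**Figure D2:**
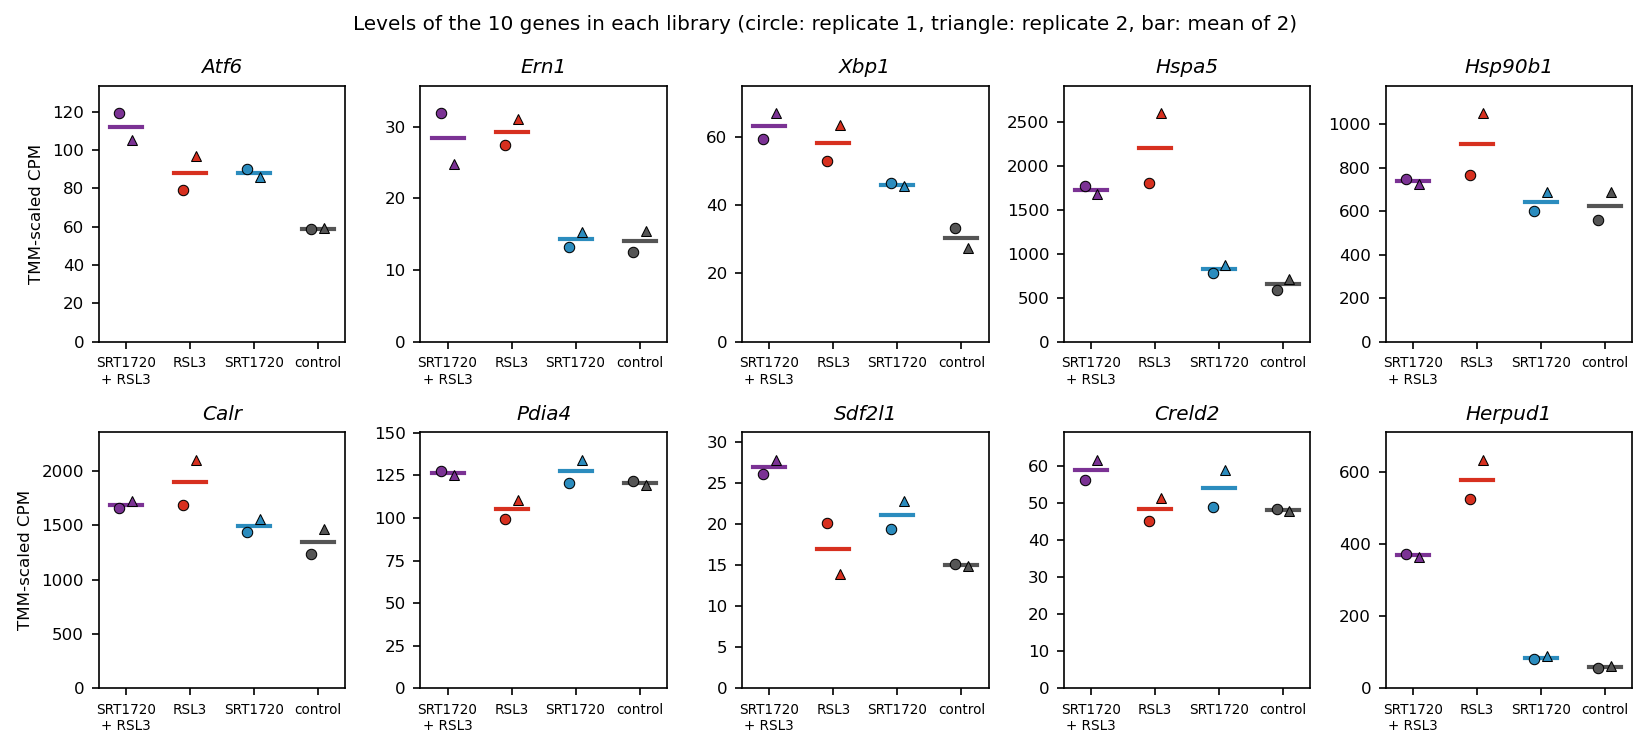
TMM-scaled CPM (vertical axes from 0) of each of the 10 genes in each library, by group, with circles for replicate 1, triangles for replicate 2 and bars for the mean of 2. Herpud1 and Hspa5 stand high in the 4 libraries with RSL3, and Atf6 is lowest in the 2 control libraries.

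The other genes of the programme were counted from lists. In the list of the PERK and ATF4 branch 16 of 17 genes rose after RSL3 and 0 fell (median log2 change 2.90), led by the transcription factor Atf3 (6.21 ± 0.12), the glutathione-degrading enzyme Chac1 (5.97 ± 0.13) and the mTORC1 inhibitor Ddit4 (4.81 ± 0.13). Eif2ak3, the gene of PERK itself, is in the list of other sensors and did not pass (0.35 ± 0.14, adjusted p = 0.0758, edgeR). The activity of PERK was not seen in reads per gene, so what drove the genes of this branch was not tested. The remaining lists had medians between 0.03 and 0.28. Of 32 other ER folding factors 13 rose and 0 fell (median 0.28). Dnajb9, a BiP co-chaperone that also acts on IRE1, was at 178.7 ± 26.5 CPM in RSL3 and 7.77 ± 0.113 CPM in control cells (SD, n = 2 each), a log2 change of 4.52 ± 0.18 (adjusted p = 1.78e-07, edgeR). Ero1a, which oxidises disulfide isomerases, was at 207.4 ± 18.3 CPM in RSL3 cells and 56.7 ± 1.51 CPM in control cells (1.87 ± 0.11), and the isomerase P4hb changed by 0.64 ± 0.11. In the lists of ER genes outside the PERK and ATF4 branch, Dnajb9 was the 1 gene with a change above that of Herpud1.

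Of 21 genes of ER-associated degradation, the route that Herpud1 serves, 9 rose and 1 fell (median 0.20). Those with the smallest p were Ubxn4 (0.80 ± 0.09), which recruits the VCP segregase, and the ubiquitin-conjugating enzyme Ube2j1 (0.72 ± 0.09), both higher, and the ubiquitin ligase Rnf139 (-0.77 ± 0.11), which was lower. Of 30 genes of ER translocation and secretory transport 4 rose and 0 fell (median 0.10), among them the signal recognition particle receptor genes Srpr (0.44 ± 0.11) and Srprb (0.36 ± 0.10) and the signal peptidase subunit Spcs2 (0.36 ± 0.10). Of 12 tested genes for other sensors and processing factors 2 rose and 1 fell (median 0.03). Mbtps1, the protease that first cuts ATF6, was lower (-0.51 ± 0.10), and the ATF6 relative Creb3l2 (0.54 ± 0.11) and the death effector Bax (0.45 ± 0.11) were higher. Of 9 transcripts reported as cut by IRE1, 1 rose (Pdgfrb, 0.55 ± 0.12) and 1 fell (Scara3, -0.89 ± 0.17), with a median of 0.05.

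**Figure D3:**
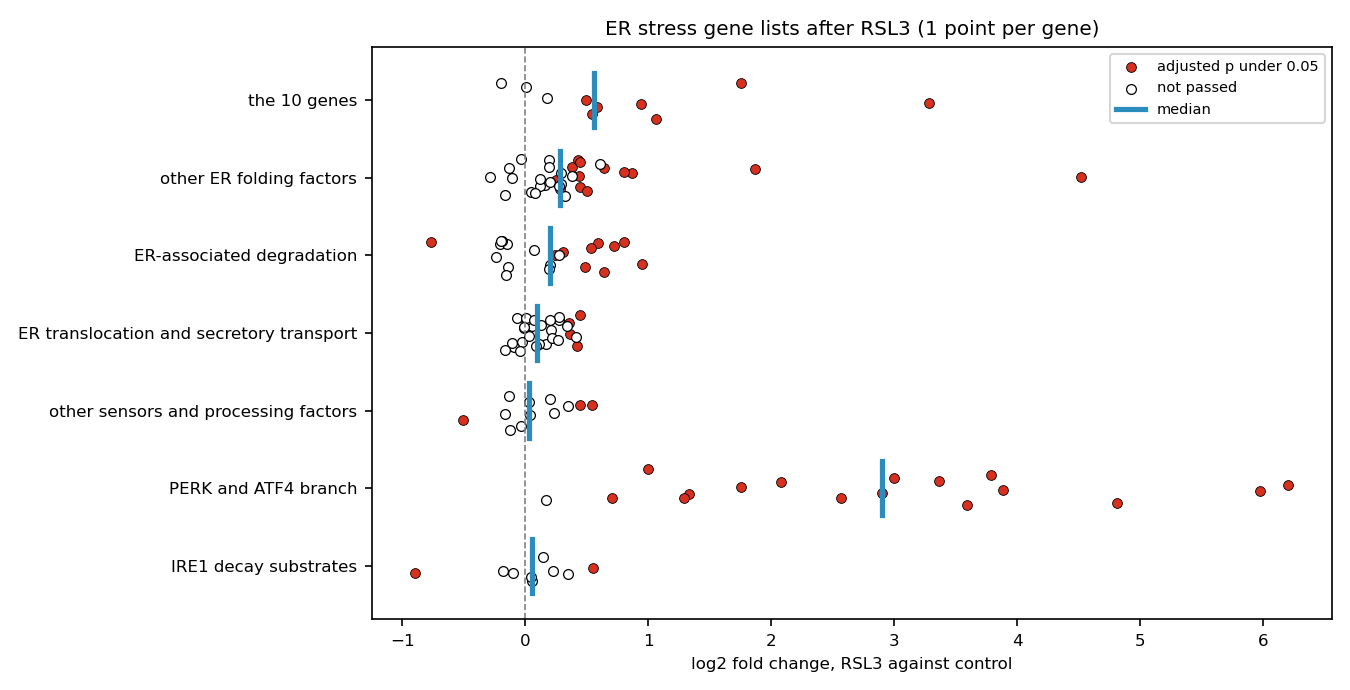
Log2 fold change of RSL3 against control (horizontal axis) for each tested gene of 7 lists (rows), with filled points for adjusted p under 0.05 and a blue bar at each median. The PERK and ATF4 branch has its median at 2.90, the 10 genes at 0.56.

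SRT1720 on its own was compared with control to see its effect without RSL3. Of the 10 genes 1 rose and 0 fell, where 1.31% of all genes were called, 1.1% higher. All 10 fitted changes were above 0, with a median of 0.26 against -0.003 over all genes, and 4 had an unadjusted p under 0.05. The shares of all genes above 0 or with such a p were not counted. The 10 changes share the control libraries, so their common sign is no result about the set. Atf6 was the gene that passed. It was at 90.2 and 86.2 CPM in SRT1720 libraries, against 58.7 and 59.2 CPM in control libraries, without overlap (0.58 ± 0.12, adjusted p = 0.0486, edgeR). That adjusted p lay just under the threshold. The size of the change varied little, from 0.55 to 0.61 over 17 alternatives, and the call ended in 9 of them, among them limma-voom (adjusted p = 0.0501) and the omission of any library other than those given RSL3 alone.

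Xbp1 and Herpud1 lay just outside the threshold with SRT1720. Xbp1 was at 46.3 and 45.6 CPM in SRT1720 libraries and 33.1 and 27.5 CPM in control libraries (0.60 ± 0.13, adjusted p = 0.067, edgeR). Herpud1 was at 81.3 and 89.2 CPM in SRT1720 libraries and 56.3 and 63.1 CPM in control libraries (0.51 ± 0.11, adjusted p = 0.0684). Neither gene's groups overlapped, and both passed with DESeq2 (0.60 and 0.52) and without either RSL3 library (Xbp1 0.60 without replicate 1 or 2, Herpud1 0.51 without either). Sdf2l1 was at 19.4 and 22.9 CPM with SRT1720 and 15.2 and 14.9 CPM in control (0.49 ± 0.17, adjusted p = 0.229), and passed without RSL3 replicate 1 or 2 (0.49 each). Of 17 alternatives, Xbp1 gained a call in 6, Herpud1 in 7 and Sdf2l1 in 2, and these genes did not pass in the rest. The RSL3 libraries enter this comparison only through the filter, scaling and spread shared by all groups. Hspa5 was at 784.2 and 877.4 CPM with SRT1720 and 588.3 and 716.2 CPM in control (0.35 ± 0.16, 95% interval -0.01 to 0.71, adjusted p = 0.396, edgeR). The intervals of Ern1 (-0.34 to 0.40), Hsp90b1 (-0.30 to 0.39), Calr (-0.13 to 0.43), Pdia4 (-0.14 to 0.30) and Creld2 (-0.10 to 0.44) spanned 0.

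The next comparison asks whether SRT1720 before RSL3 changed what RSL3 alone gave. Of the 10 genes 1 rose and 1 fell, where 20.2% of all genes were called, 11.4% higher and 8.75% lower. Herpud1 fell. It was at 373.1 and 366.1 CPM in SRT1720 plus RSL3 libraries, against 525.5 and 634.4 CPM in RSL3 libraries, without overlap (-0.65 ± 0.11, 0.637-fold, 95% interval 0.536 to 0.758, adjusted p = 0.00376, edgeR). Its level with both compounds thus stayed well above that of SRT1720 alone and of control.

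Sdf2l1 rose with SRT1720 before RSL3. It was at 26.2 and 27.8 CPM in SRT1720 plus RSL3 libraries, against 20.1 and 13.9 CPM in RSL3 libraries (0.67 ± 0.17, adjusted p = 0.0213, edgeR). The groups did not overlap, and the RSL3 libraries differed from each other by 0.52 on the log2 scale. Its call ended without RSL3 replicate 2 (0.43), without SRT1720 plus RSL3 replicate 1 (0.72) or 2 (0.62), and with the 4 libraries compared on their own (0.66).

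The other 8 genes did not pass in this comparison. Atf6 was at 119.2 and 105.2 CPM with SRT1720 plus RSL3 and 79.2 and 97.0 CPM with RSL3 (0.35 ± 0.12, 95% interval 0.09 to 0.61, adjusted p = 0.0613, edgeR), and passed without RSL3 replicate 2 (0.50). Hspa5 was at 1764 and 1679 CPM with SRT1720 plus RSL3 and 1799.6 and 2594 CPM with RSL3 (-0.35 ± 0.16, adjusted p = 0.157). Its value was -0.06 without RSL3 replicate 2 and -0.57 without RSL3 replicate 1, so that it depended on which RSL3 library was kept. Hsp90b1 followed the same pattern, with -0.30 over all libraries and -0.49, a call, without RSL3 replicate 1. Of the lists, other ER folding factors had 0 genes higher and 5 lower of 32, and the PERK and ATF4 branch 1 higher and 5 lower of 17. Of the markers, 0 of 11 for fibroblasts were higher and 4 lower (median -0.40), and 3 of 9 for other cell types were higher and 1 lower (median 0.32), and their part was not tested. The intervals of Pdia4 (0.05 to 0.48) and Creld2 (0.01 to 0.56) lay above 0, with adjusted p = 0.0833 for Pdia4 and 0.127 for Creld2. Pdia4 passed with library size only (0.32). It also passed in both alternatives chosen after seeing the data, at 0.27 with the replicate number as a block and the numbers of SRT1720 plus RSL3 swapped (a crossed replicate block), and at 0.35 when replicate 2 of control and of RSL3 were left out together. The intervals of Xbp1 (-0.17 to 0.41), Ern1 (-0.40 to 0.30) and Calr (-0.44 to 0.11) spanned 0.

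RSL3 was also given to cells that had SRT1720, and this comparison, SRT1720 plus RSL3 against SRT1720, shares no library with that of RSL3 against control. Of the 10 genes 4 rose and 0 fell, where 21.3% of all genes were called, 12.3% higher and 9.06% lower. The 4 genes, Herpud1, Hspa5, Ern1 and Xbp1, had also risen after RSL3 alone. Over all genes 1105 were higher in both comparisons and 780 lower in both. Of the lists, 16 of 17 genes of the PERK and ATF4 branch rose again (median 2.06), while 3 of 32 other ER folding factors rose and 2 fell, and 6 of 21 genes of ER-associated degradation rose and 2 fell. Herpud1 was at 373.1 and 366.1 CPM with SRT1720 plus RSL3 and 81.3 and 89.2 CPM with SRT1720 (2.12 ± 0.12, 4.33-fold, adjusted p = 4.09e-06, edgeR). Hspa5 was at 1764 and 1679 CPM with SRT1720 plus RSL3 and 784.2 and 877.4 CPM with SRT1720 (1.05 ± 0.16, 2.07-fold, adjusted p = 0.00189).

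Ern1 was at 31.9 and 24.9 CPM in SRT1720 plus RSL3 libraries and 13.3 and 15.4 CPM in SRT1720 libraries (0.99 ± 0.16, adjusted p = 0.00239, edgeR). Xbp1 was at 59.3 and 66.8 CPM in SRT1720 plus RSL3 libraries and 46.3 and 45.6 CPM in SRT1720 libraries (0.46 ± 0.13, adjusted p = 0.0333). Neither gene's groups overlapped. The Xbp1 call ended without either SRT1720 library (0.47 without replicate 1 and 0.44 without replicate 2), without either SRT1720 plus RSL3 library (0.54 and 0.37) and with library size only (0.25). Atf6 (0.35 ± 0.12, adjusted p = 0.0597) did not pass, and passed without RSL3 replicate 1 or 2 (0.35 each). Sdf2l1 (0.35 ± 0.16, adjusted p = 0.16) did the same, at 0.35 without either RSL3 library. The intervals of Calr (-0.11 to 0.45), Hsp90b1 (-0.15 to 0.54), Pdia4 (-0.23 to 0.20) and Creld2 (-0.14 to 0.40) spanned 0.

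The interaction tests whether the effect of SRT1720 with RSL3 differs from its effect without RSL3, and equally whether RSL3 changed a gene less or more where SRT1720 was present. Of the 10 genes 1 passed, Herpud1, and 6.37% of all genes were called, 3.46% with a positive and 2.92% with a negative value. The Herpud1 value was -1.16 ± 0.16 (95% interval -1.52 to -0.81, adjusted p = 0.00357, edgeR). Its rise on RSL3 was thus 4.33-fold with SRT1720 and 9.72-fold without. It kept this call in all 16 alternatives that gave the interaction, between -1.28 and -1.02 (adjusted p between 9.4e-09 and 0.0346).

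Hspa5 had an interaction of -0.70 ± 0.23 and Xbp1 of -0.48 ± 0.19, with unadjusted p of 0.0126 and 0.0269 and adjusted p of 0.11 and 0.167 in edgeR. Neither passed. Hspa5 passed without RSL3 replicate 1 (-0.92) and with DESeq2 (-0.70), and was at -0.41, not a call, without RSL3 replicate 2. In the alternatives chosen after seeing the data it passed at -0.69 (crossed replicate block) and -0.56 (replicate 2 of control and of RSL3 left out together). For Ern1 the interaction was -0.08 ± 0.23, with an interval of -0.59 to 0.43. Those of Atf6 (-0.60 to 0.14), Hsp90b1 (-0.83 to 0.14), Calr (-0.71 to 0.08), Pdia4 (-0.12 to 0.49), Sdf2l1 (-0.35 to 0.70) and Creld2 (-0.26 to 0.50) also spanned 0. Outside the 10 genes, Dnajb9 (-2.40 ± 0.23, adjusted p = 0.000653, edgeR) and Ero1a (-1.60 ± 0.16, adjusted p = 0.000679) passed with the sign of Herpud1. So did Atf3 (-1.28 ± 0.15), Chac1 (-1.11 ± 0.15) and Ddit4 (-1.68 ± 0.16). All of these had been named for their change after RSL3, a rise that enters the interaction with a minus sign. Their shared sign was thus favoured by that choice. Chac1 was nearly level with both compounds (940.2 CPM) and RSL3 (961.3 CPM), and rose with SRT1720 alone (32.2 CPM, control 15.3 CPM). Negative calls were 2 of 32 other ER folding factors, 5 of 17 in the PERK and ATF4 branch, and 0 of 21 in ER-associated degradation. They were 0 of 30 in translocation and transport, 1 of 12 other sensors, and 1 of 9 IRE1 substrates, where 1 was positive.

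**Figure D4:**
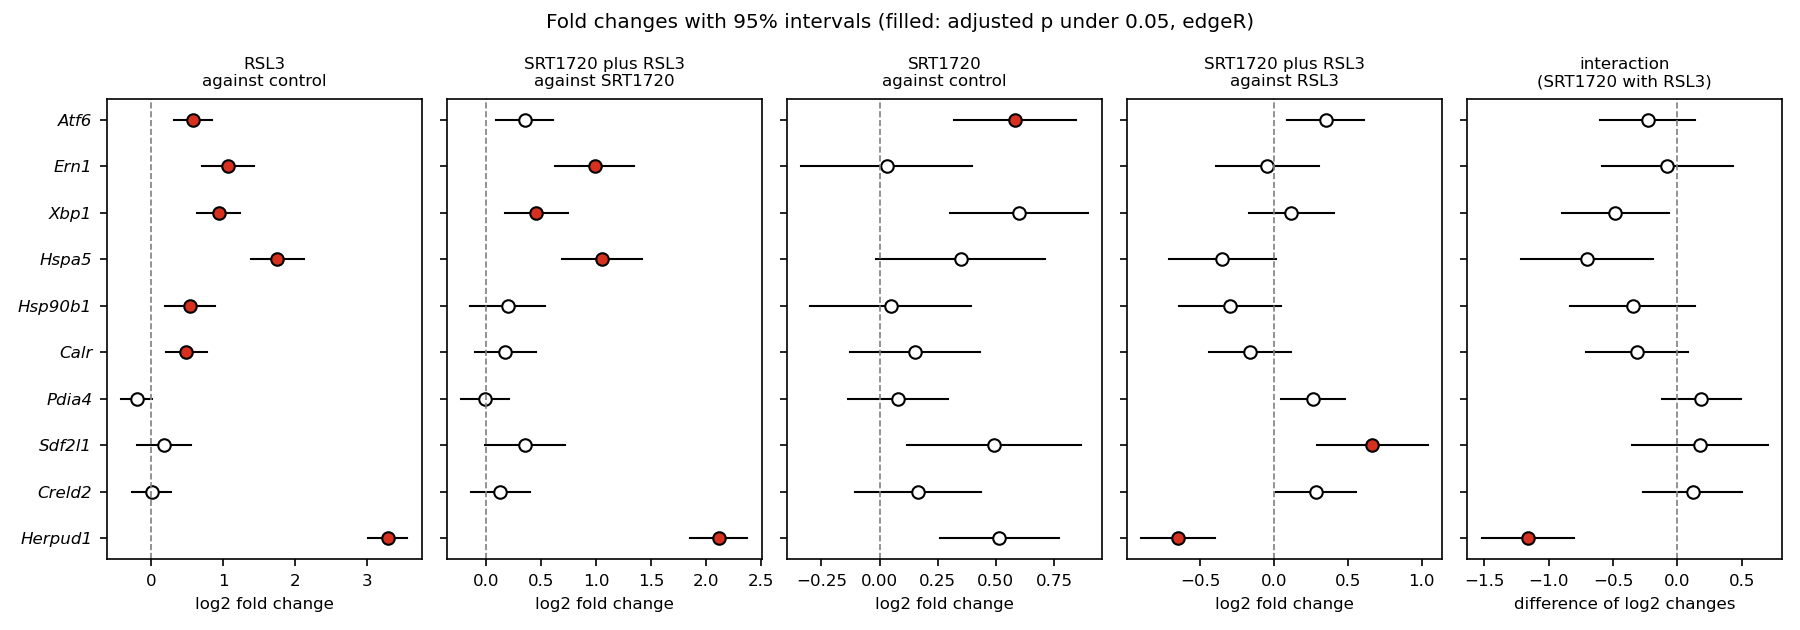
Log2 fold changes (points) of the 10 genes in 4 comparisons and the interaction, with 95% intervals, filled where adjusted p was under 0.05. The horizontal scale differs between panels, and Herpud1 is the gene filled in the interaction panel, at -1.16.

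The order of the group levels differed among the genes. Herpud1 was highest with RSL3 (580.0 ± 77.0 CPM, SD, n = 2), then SRT1720 plus RSL3 (369.6 ± 4.92), SRT1720 (85.3 ± 5.56) and control (59.7 ± 4.77), with the first pair of neighbours past the test and the last pair not. Hspa5 followed the same order (2197 ± 562, 1722 ± 60.7, 830.8 ± 65.9 and 652.3 ± 90.4 CPM), and neither the first nor the last pair of neighbours differed past the test. Atf6 was highest with SRT1720 plus RSL3 (112.2 ± 9.91 CPM), nearly level with SRT1720 (88.2 ± 2.80) and RSL3 (88.1 ± 12.6), and lowest in control (59.0 ± 0.354). Its level with both compounds did not differ past the test from that with either alone. Xbp1 was highest with SRT1720 plus RSL3 (63.0 ± 5.28) and RSL3 (58.1 ± 7.44), which did not differ past the test. SRT1720 (45.9 ± 0.525) and control (30.3 ± 3.95) came next and did not differ past the test either. Ern1 was nearly level with RSL3 (29.3 ± 2.62) and SRT1720 plus RSL3 (28.4 ± 4.95), and its lower levels with SRT1720 (14.3 ± 1.48) and in control did not differ past the test. Sdf2l1 was highest with SRT1720 plus RSL3 (27.0 ± 1.18), then SRT1720 (21.2 ± 2.44), RSL3 and control. Its level with SRT1720 plus RSL3 did not differ past the test from that with SRT1720, nor did SRT1720 or RSL3 from control.

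Genes with the most similar pattern were found by the root mean square difference in the log2 fold changes of RSL3, SRT1720 and SRT1720 plus RSL3 against control, over 9530 genes with a mean of at least 5 CPM. The comparisons share the control libraries. Nearest to Herpud1 were the antiproliferative gene Btg2 (0.175), the stress-induced Nupr1 (0.188) and the cell cycle inhibitor Cdkn1a (0.196). Nearest to Ern1 were the asparaginyl-tRNA synthetase gene Nars (0.012), Bsdc1 (0.050) and the asparagine synthetase gene Asns (0.053). Nearest to Hspa5 were Gabarapl1, an ATG8 gene of autophagy (0.048), the phosphate transporter Slc20a1 (0.084) and Rbm15 (0.116). For Atf6 they were the lysosomal hexosaminidase Hexa (0.035), Zmym6 (0.035) and Wbp2 (0.058), and for Xbp1 the nucleotide receptor P2ry2 (0.026), the lysosomal membrane gene Glmp (0.065) and Tmem251 (0.072). For Hsp90b1 they were Zbtb7a, Dst and Cgrrf1, and for Pdia4 Atg4b, Fastk and Ppat, all within 0.024. For Creld2 they were Lsm14b, Eef1akmt4 and Fbxl5 (0.019 to 0.025), and for Sdf2l1 Ssc4d, Amdhd2 and Cgref1 (0.049 to 0.060). None of these is among the 10 genes.

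The spread within a group was part of these patterns. In the RSL3 pair, 9 of the 10 genes were higher in replicate 2 than in replicate 1, with a median log2 difference of 0.27, against 4697 of 8637 genes and a median of 0.03 over all genes of at least 10 CPM. Hspa5 (0.53), Hsp90b1 (0.45) and Calr (0.32) were furthest up and Sdf2l1 was down (-0.52). In the control pair 6 of the 10 were higher in replicate 2, again with Hsp90b1 (0.30), Hspa5 (0.28) and Calr (0.25), and with Xbp1 down (-0.26). In the SRT1720 plus RSL3 pair 4 of 10 were higher in replicate 2, with the widest gap at Ern1 (-0.35), and in the SRT1720 pair 8 of 10, with the widest gap at Creld2 (0.26). Other ER folding factors were higher in replicate 2 in 27 of 32 cases in the RSL3 pair (median 0.18) and in 24 of 32 in the control pair (0.08). The fibroblast markers were higher in 8 of 11 in each of these pairs (medians 0.25 and 0.24).

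**Figure D5:**
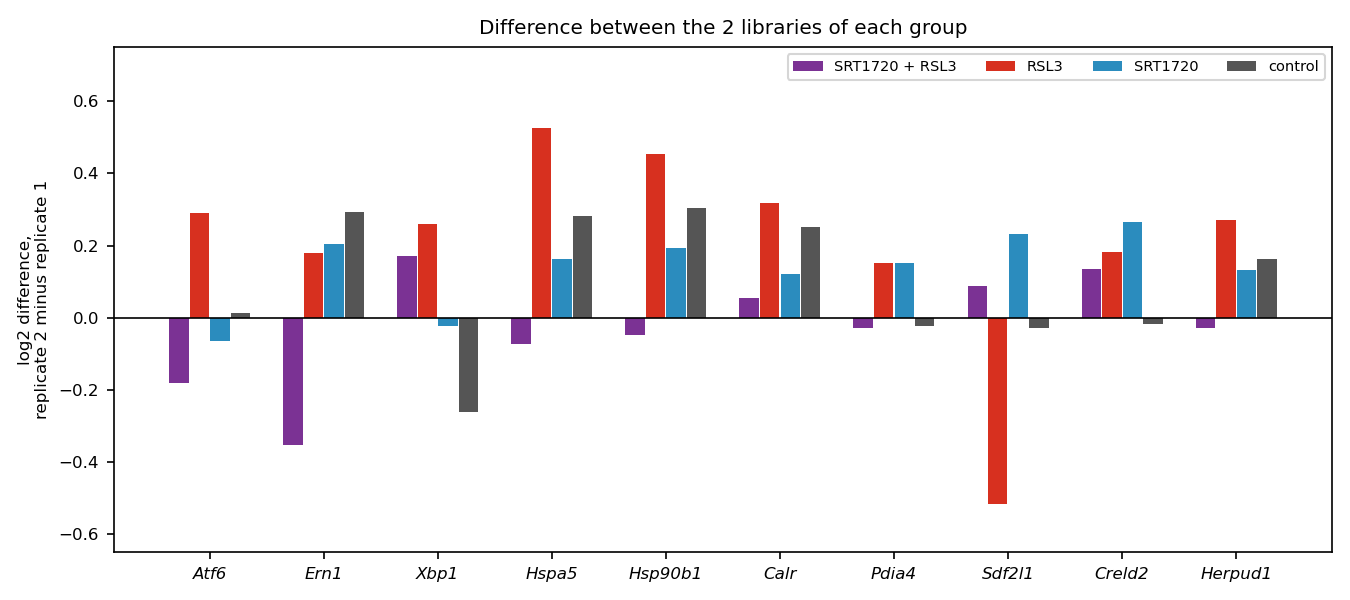
Log2 difference between the 2 libraries of each group, replicate 2 minus replicate 1 (vertical axis), for each of the 10 genes, with a bar per group. The red RSL3 bars point up for 9 genes, most for Hspa5 at 0.53, and down for Sdf2l1 at -0.52.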

How the data were processed

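RNA of 8 libraries (4 groups of 2) was sequenced after TruSeq Stranded mRNA preparation, per the labels' protocols. The authors deposited 1 table of expected counts, that is estimated read counts per gene with reads shared between genes divided. Aligner, counter, genome build and filters: not given in the sources used here. Table columns were tied to replicates 1 and 2 through the labels' library names, where a suffix marks replicate 2. Apart from RSL3, those names are spelled differently.

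Counts were rounded and tested with edgeR 4.0.16 (R 4.3.3): TMM scaling, filterByExpr, a quasi-likelihood fit of 4 group means to 8 libraries (4 residual and 5.73 prior degrees of freedom), two-sided, with Benjamini-Hochberg adjustment over 12618 genes at 0.05. The common dispersion was 0.0112 (coefficient of variation 10.6% within a group). SEs are the log2 change over the square root of F. On simulated data, 89% of genes changed 2-fold were recovered for RSL3 against control. Alternatives used limma 3.58.1 and DESeq2 1.42.0.

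Named were the 10 genes, up to 3 genes per list with the smallest p that passed after RSL3 (where none passed, the 1 of smallest p), and the 3 nearest in pattern to each of the 10. The genes nearest to Calr are not reported here. Dnajb9, Ero1a, Atf3, Chac1 and Ddit4 were followed into the interaction after their values were seen. They had been named for their change after RSL3, a comparison that shares libraries with the interaction. Eif2ak3 and the list genes named with the motifs were added outside these rules. The genes, lists and motifs were chosen with earlier results of these data known. Motif searches and drawing used Python 3.11.15 with pandas 2.3.3 and matplotlib 3.10.9.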

Additional observations from a re-analysis of the deposited data

Results flagged for a closer look

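Herpud1 differed in its response to SRT1720 between cells with and without RSL3, by the test of the difference itself. The interaction was -1.16 ± 0.16 on the log2 scale (adjusted p = 0.00357, edgeR). SRT1720 changed Herpud1 by -0.65 ± 0.11 in cells given RSL3 and by 0.51 ± 0.11 in cells without it, and the change without RSL3 did not pass. In the libraries, 2 of 2 with both compounds lay below 2 of 2 with RSL3, and 2 of 2 with SRT1720 lay above 2 of 2 controls. Groups of 2 libraries can often lie apart without any true change, and the share of all genes lying apart in this way was not counted.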

How the results depend on the processing

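Of 840 values recomputed for the 10 genes, 740 kept direction and call, 27 lost the call, 41 gained one and 32 changed sign, and 0 of those 32 had an adjusted p under 0.05. Of 50 results for single genes, 9 kept a call in every alternative run: Herpud1 in all comparisons other than SRT1720 against control, Hspa5 and Ern1 after RSL3 with and without SRT1720, and Xbp1 after RSL3 alone. The cause of the other changes was not tested. With 2 libraries a group, the spread of a group rests on a single difference.

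The genes called for SRT1720 against control (1 of 10 and 165 of all) were 0 of 10 with library size only and with limma-voom, 3 of 10 and 384 with DESeq2, and 3 and 286 with only the libraries compared. For SRT1720 plus RSL3 against RSL3 (2 and 2546) the 10 genes gave 4 calls with library size only, and there were 1 and 1578 with only the libraries compared. DESeq2 called 2 of 10 in the interaction (1 and 804). With only the libraries compared, 2931 genes were called for RSL3 against control (4511) and 4682 for SRT1720 plus RSL3 against SRT1720 (2692). With library size only, 894 were higher and 3066 lower in that last comparison (1549 and 1143 with TMM), 1735 and 885 for SRT1720 plus RSL3 against RSL3 (1442 and 1104), and 600 and 284 in the interaction (436 and 368).

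Leaving out each library in turn gave 5 to 7 of 10 and 3330 to 4519 genes for RSL3 against control, 0 to 4 and 9 to 511 for SRT1720 against control, 1 to 4 and 846 to 3482 for SRT1720 plus RSL3 against RSL3, 3 to 6 and 1041 to 3542 for SRT1720 plus RSL3 against SRT1720, and 1 to 2 and 183 to 1247 for the interaction. Where an arm kept 1 library, it was assumed to vary like the other groups.

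The labels tie the replicate numbers to no shared culture or day, so they were not taken to pair the libraries. Deviations of same-numbered libraries correlated at 0.71 between RSL3 and control, -0.4 and -0.29 between SRT1720 plus RSL3 and these groups, and -0.02 to -0.01 with SRT1720 (8637 genes). With the replicate block 7, 1, 2, 4 and 1 of the 10 genes were called in the comparisons in the order just given, with 4570, 203, 2577, 2713 and 789 genes. Calr (0.49) and Hsp90b1 (0.53) kept their calls after RSL3 with the block (adjusted p = 0.00329 and 0.0064, edgeR). Within SRT1720 against control, the block ended the call of Atf6 (adjusted p = 0.0542, edgeR) and gave one to Herpud1 (0.0384). After the data were seen, a crossed replicate block, with the numbers of SRT1720 plus RSL3 swapped, gave 3 of 10 and 500 for SRT1720 against control, 5 of 10 for SRT1720 plus RSL3 against RSL3, and 2 of 10 and 1341 for the interaction. Also chosen after seeing the data, the omission of both replicates numbered 2 of control and RSL3 gave 4 of 10 and 394 for SRT1720 against control, 4 of 10 for SRT1720 plus RSL3 against RSL3, 4589 genes for SRT1720 plus RSL3 against SRT1720, and 2 of 10 and 1224 for the interaction.

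Values that changed sign were small. With library size only these were Creld2 (-0.28) and Sdf2l1 (-0.11) for RSL3 against control, Calr (-0.0334), Creld2 (-0.0802) and Hsp90b1 (-0.0119) for SRT1720 plus RSL3 against SRT1720, and Ern1 for SRT1720 plus RSL3 against RSL3 (0.0117) and the interaction (5e-04). Creld2 was at -0.0131 for RSL3 against control with only the libraries compared. Without both replicates numbered 2 of control and RSL3, Creld2 was at -0.10 for RSL3 against control, Calr at 0.0031 and Ern1 at 0.0493 for SRT1720 plus RSL3 against RSL3, and Sdf2l1 at -0.0527 in the interaction. With each library left out in turn, RSL3 against control ranged from -0.0903 to 0.0762 for Creld2 and from -0.13 to 0.42 for Sdf2l1, and SRT1720 against control from -0.12 to 0.19 for Ern1 and from -0.10 to 0.21 for Hsp90b1. SRT1720 plus RSL3 against RSL3 ranged from -0.30 to 0.0039 for Calr and from -0.22 to 0.12 for Ern1, and SRT1720 plus RSL3 against SRT1720 from -8e-04 to 0.26 for Creld2 and from -0.0866 to 0.0645 for Pdia4. The interaction ranged from -0.0055 to 0.26 for Creld2, from -0.25 to 0.0928 for Ern1 and from -0.0653 to 0.48 for Sdf2l1.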
